A study of Mus musculus with 4 samples.

Results

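Expression of 7 genes was examined in single cells from intestinal tumors of mice: the MYC family members Myc, Mycn and Mycl, their dimerization partner Max, and the D-type cyclins Ccnd1, Ccnd2 and Ccnd3. They were taken by name from the 27514 genes shared by the gene tables of all libraries. The 4 libraries came from 2 genotypes with 2 libraries each. ApcMin mice were ApcMin/+;Lef1 +/+ and VApcMinL mice were ApcMin/+;Lef1 fl/fl;Villin-Cre, so every mouse carried the Apc Min allele, and the Cre driver acts throughout the intestinal epithelium from development on and not in adenoma cells alone. Animals were C57BL/6, labelled male and 11 weeks old. Each library pooled several tumors, was not sorted, and is called here by its label. ApcMin 1 and VApcMinL 1 were prepared with kit 2, and ApcMin 2 and VApcMinL 2 with kit 3.

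MYC, MYCN and MYCL are basic helix-loop-helix transcription factors that bind DNA as heterodimers with MAX and drive genes of ribosome production, metabolism and growth, while the MXD proteins, MNT and MGA compete for MAX. D-type cyclins activate CDK4 and CDK6, which phosphorylate the RB protein and release E2F factors at the start of the cell cycle. Loss of APC stabilizes β-catenin, and Myc and Ccnd1 are widely used as targets of that pathway in intestinal epithelium.

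All 7 genes are protein-coding in the mouse GRCm38 annotation (GENCODE). Myc lies on chromosome 15 from 61985391 to 61990374 on the plus strand, Mycn on chromosome 12 from 12936093 to 12941914 on the minus strand, Mycl on chromosome 4 from 122995652 to 123002485 on the plus strand, and Max on chromosome 12 from 76937269 to 76962201 on the minus strand. Ccnd1 lies on chromosome 7 from 144929931 to 144939925 on the minus strand, Ccnd2 on chromosome 6 from 127125162 to 127152193 on the minus strand, and Ccnd3 on chromosome 17 from 47505051 to 47599691 on the plus strand.

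Cell barcodes with at least 2000 unique molecular identifiers (UMIs, 1 per captured transcript) and at most 20% mitochondrial UMIs were kept, which left 2071 to 4217 cells per library. Cells were gated by marker genes, none of which is a member. Adenoma cells carried epithelial genes and Wnt-feedback genes such as Notum, Nkd1 and Wif1, crypt cells carried stem and crypt genes such as Olfm4 and Lgr5 without the adenoma markers, and cycling cells had high S or G2/M genes. Cycling adenoma cells numbered 258, 137, 197 and 1045 in ApcMin 1, ApcMin 2, VApcMinL 1 and VApcMinL 2, the order in which values are given throughout. Non-cycling adenoma cells numbered 189, 142, 231 and 631, cycling crypt cells 99, 70, 72 and 108, and non-cycling crypt cells 24, 5, 16 and 37. Levels are given as CPM, the UMIs of a gene per 1000000 UMIs of a cell class in a library. Because the chemistry counts 1 end per molecule, no length correction was made. Whether capture differed between genes or kits was not tested, so levels of different genes are set beside each other with that limit.

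The labels were not borne out by the targeted gene. Lef1 in non-cycling adenoma cells was 10.4 and 49.0 CPM in the libraries labelled ApcMin 1 and 2 and 45.6 and 26.7 in those labelled VApcMinL 1 and 2, so the library labelled as the conditional mutant was the higher one within kit 2 and the lower one within kit 3. Whether the counted end of the Lef1 transcript lies in the deleted part was not determined. Xist, which is expressed from the inactive X chromosome of female cells, was 0 to 0.15 CPM in adenoma cells of the ApcMin libraries and 316 to 1439 in those of the VApcMinL libraries, although all animals are labelled male, so that genotype and sex cannot be told apart. Of the barcodes with at least 2000 UMIs, 61.6% were removed for mitochondrial UMIs in ApcMin 2 and 20.4% to 26.5% in the others. Comparisons between cell classes were made within each library and did not use the genotype label.

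Myc was spread over dividing and undifferentiated cells and was low in enterocytes, the absorptive cells of the villus. In cycling adenoma cells it was 38.5, 34.7, 23.6 and 47.5 CPM, and in cycling crypt cells 25.1, 31.9, 34.4 and 32.5. In non-cycling adenoma cells it was 30.2, 27.2, 15.1 and 42.5, and the ranges of these 3 classes overlapped. The highest mean was in non-cycling crypt cells, 50.1 ± 21.4 (SD, n = 4), followed by T cells with 45.7 ± 19.9 and cycling adenoma cells with 36.1 ± 9.90. Enterocytes held 3.03 ± 1.88, the lowest library at 1.2 and the highest at 5.4. No neighbours in the order of Myc levels were separated by their ranges.

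The other MYC family genes had different distributions. Mycn, best known from embryonic and neural tissue, was highest outside the epithelium. It was 26.4, 16.1, 28.1 and 28.7 CPM in endothelial cells and 12.9, 15.3, 12.2 and 21.8 in fibroblasts, and these ranges overlapped each other but not that of the next class. The separation rests on few Mycn UMIs. The endothelial sums of ApcMin 2 and VApcMinL 2 came from 6 cells each and held 62159 and 69803 UMIs of all genes. The fibroblast sums held 183362 to 772471. It was not detected in the immune cells, where a count of 0 allows up to 0.539 CPM over the pooled libraries. Mycl was highest in the immune cells that passed none or several of the lineage marker sets (45.1 ± 22.5). Next were tuft cells, the chemosensory cells of the epithelium, with 31.0, 23.1, 56.5 and 45.8. The tuft cells numbered only 4 to 23 per library. Cycling adenoma cells followed with 24.8, 29.7, 15.4 and 29.8. Max was 133 ± 41.0 in T cells and 83.3 ± 16.2 in enterocytes, while Paneth and goblet cells, with means of 33.3 and 31.3, lay below the adenoma and crypt classes.

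The D-type cyclins differed in the classes where they were highest. Ccnd1 was highest in endothelial cells (323, 209, 422 and 702 CPM), although only 6 endothelial cells were gated in each kit 3 library. It was followed by cycling adenoma cells, with 135.0, 265.3, 162.3 and 200.4, and non-cycling adenoma cells, with 122.2, 197.3, 151.3 and 157.7, whose ranges overlapped those of the crypt classes. Ccnd2 was highest in T cells (571.5, 613.4, 650.7 and 472.6) and lowest in endothelial cells (35.9 ± 44.4). Ccnd3, the D-type cyclin of developing lymphocytes, was 153 ± 102.9 in mast cells, which numbered 1 to 34 per library, and 133 ± 18.5 in T cells, against 47.8 ± 8.50 in cycling adenoma cells and 13.2 ± 2.69 in enterocytes.

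**Figure D1:**
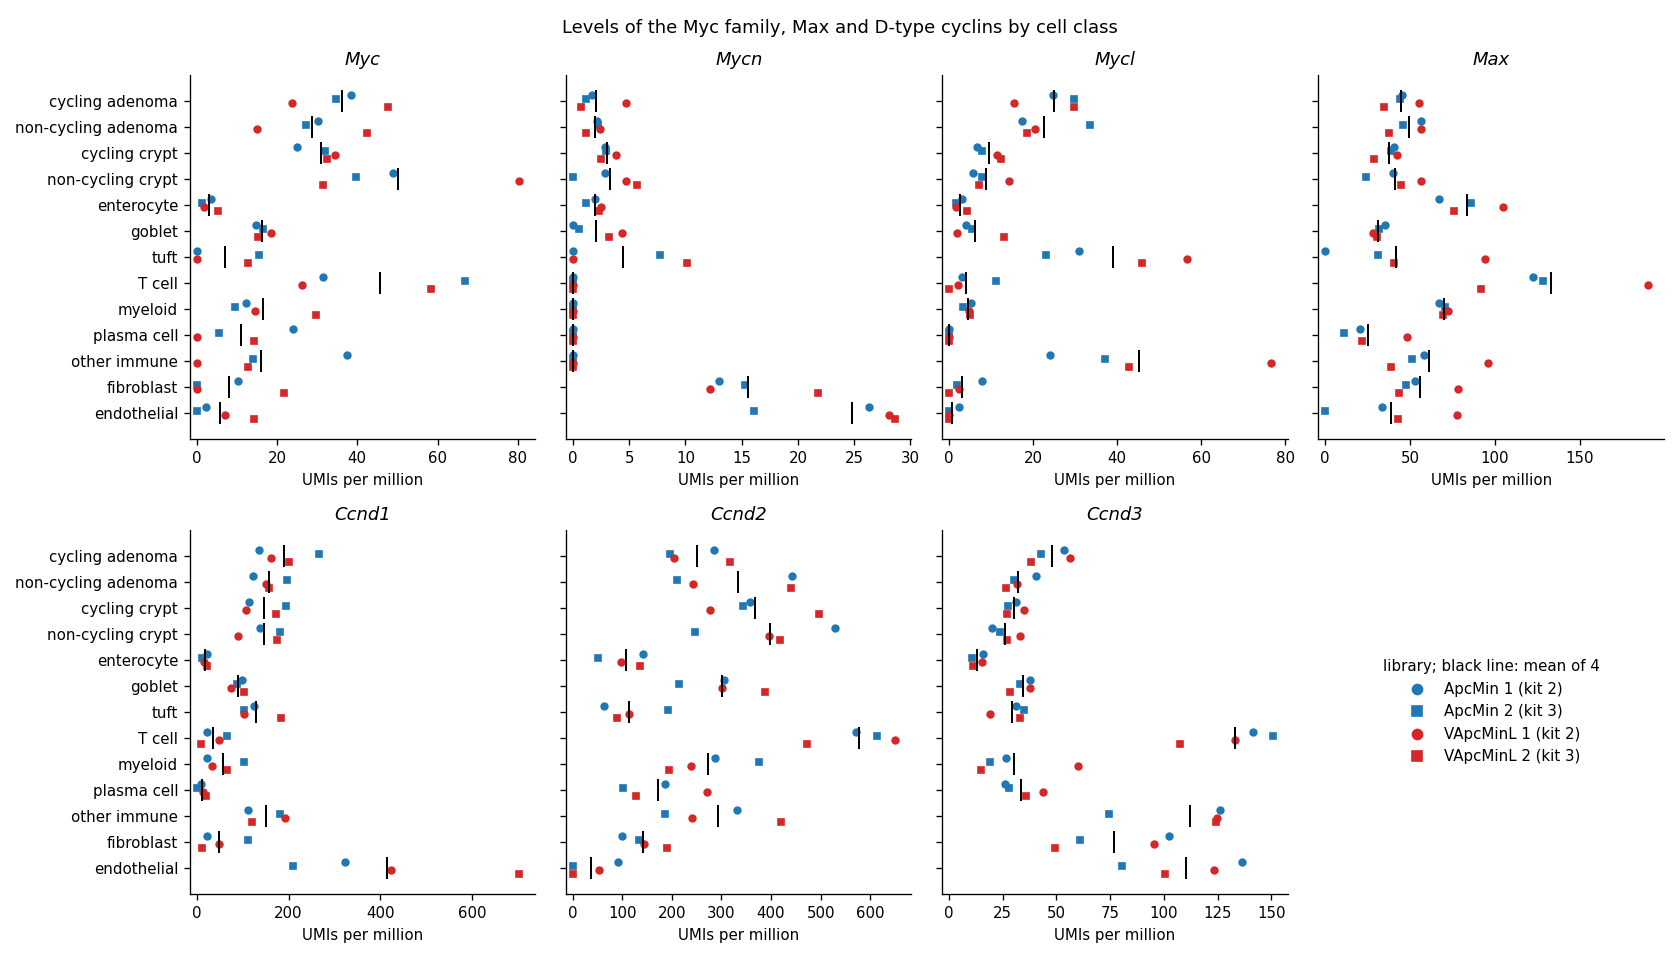
Level of each of the 7 genes in CPM in the main cell classes, with 1 point per library, genotype label by color, kit by shape and the mean of 4 libraries as a black line. Mycn is highest in endothelial cells and fibroblasts, Ccnd2 and Max are highest in T cells, and the enterocytes hold 3.03 ± 1.88 CPM of Myc.

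Free RNA limits what the levels of a class can say. Barcodes with 10 to 100 UMIs, which are mostly empty droplets, held 11.6 to 20.9 CPM of Myc, 7.17 to 10.8 of Mycn, 4.65 to 15.3 of Mycl, 51.8 to 68.0 of Max, 80.6 to 310.2 of Ccnd1, 169 to 232 of Ccnd2 and 67.7 to 92.5 of Ccnd3. In enterocytes every member other than Max lay below these barcodes of the same library in 4 of 4 libraries. In the cycling and non-cycling adenoma and crypt classes Ccnd3 and Max also lay below them in 4 of 4 libraries, as did Mycn, while Ccnd1 lay below them in the 2 libraries of kit 3. Myc in all 4 of these classes and Mycl in both adenoma classes lay above them in 4 of 4 libraries, and Mycl in both crypt classes lay below them in 3 of 4. Ccnd2 lay above them in both crypt classes in 4 of 4 libraries and in both adenoma classes in 3 of 4. How much of a cell's UMIs was free RNA was not estimated, so a level below that of the low-UMI barcodes is not read here as expression by the class, and a difference between such levels is given as a difference in CPM.

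Cycling and non-cycling adenoma cells of the same library were compared first. Myc, Ccnd1 and Ccnd3 were higher and Ccnd2 was lower in the cycling cells, in each case in 4 of 4 libraries. Ccnd3 had the largest rise, from 40.5, 30.3, 31.5 and 26.4 CPM to 53.5, 42.9, 56.2 and 38.4 (log2 change 0.61, SE 0.09, edgeR adjusted p = 0.000155). The ranges of the libraries overlapped narrowly, and every library moved up. All 8 of these levels lay below that of Ccnd3 in the low-UMI barcodes of the same library, and the part of free RNA in the difference was not tested. Ccnd1 rose by a log2 change of 0.31 (SE 0.07, edgeR adjusted p = 0.00272) and Myc by 0.36 (SE 0.09, edgeR adjusted p = 0.00741), from levels given above, with overlap between libraries but the same direction in each. With cells thinned to 2000 UMIs, which left 5 to 89 Myc UMIs per sum, the Myc change was -0.14 (edgeR adjusted p = 0.685), so that the call was lost and the direction turned.

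Ccnd2 moved the opposite way. It was 441.8, 209.3, 242.4 and 440.9 CPM in non-cycling adenoma cells and 284.0, 195.3, 204.8 and 317.8 in cycling ones, and the log2 change was -0.33 (SE 0.08, edgeR adjusted p = 0.00634). The decline was small in ApcMin 2 and VApcMinL 1 and larger in the libraries with the higher starting level. Mycl changed by 0.28 (SE 0.16, edgeR adjusted p = 0.159) with 2 of 4 libraries higher, and leaving out VApcMinL 1 brought it past the threshold (0.42, edgeR adjusted p = 0.0437), as did testing without a count filter (edgeR adjusted p = 0.00823). Max changed by -0.09 (edgeR adjusted p = 0.375) and Mycn by -0.12 (edgeR adjusted p = 0.806). Thus 3 of the 7 members were called higher and 1 lower, where 24.3% of the 11525 genes tested were called higher and 26.2% lower. The call for Ccnd1 was lost when the threshold for cycling was doubled (0.13, edgeR adjusted p = 0.268).

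**Figure D2:**
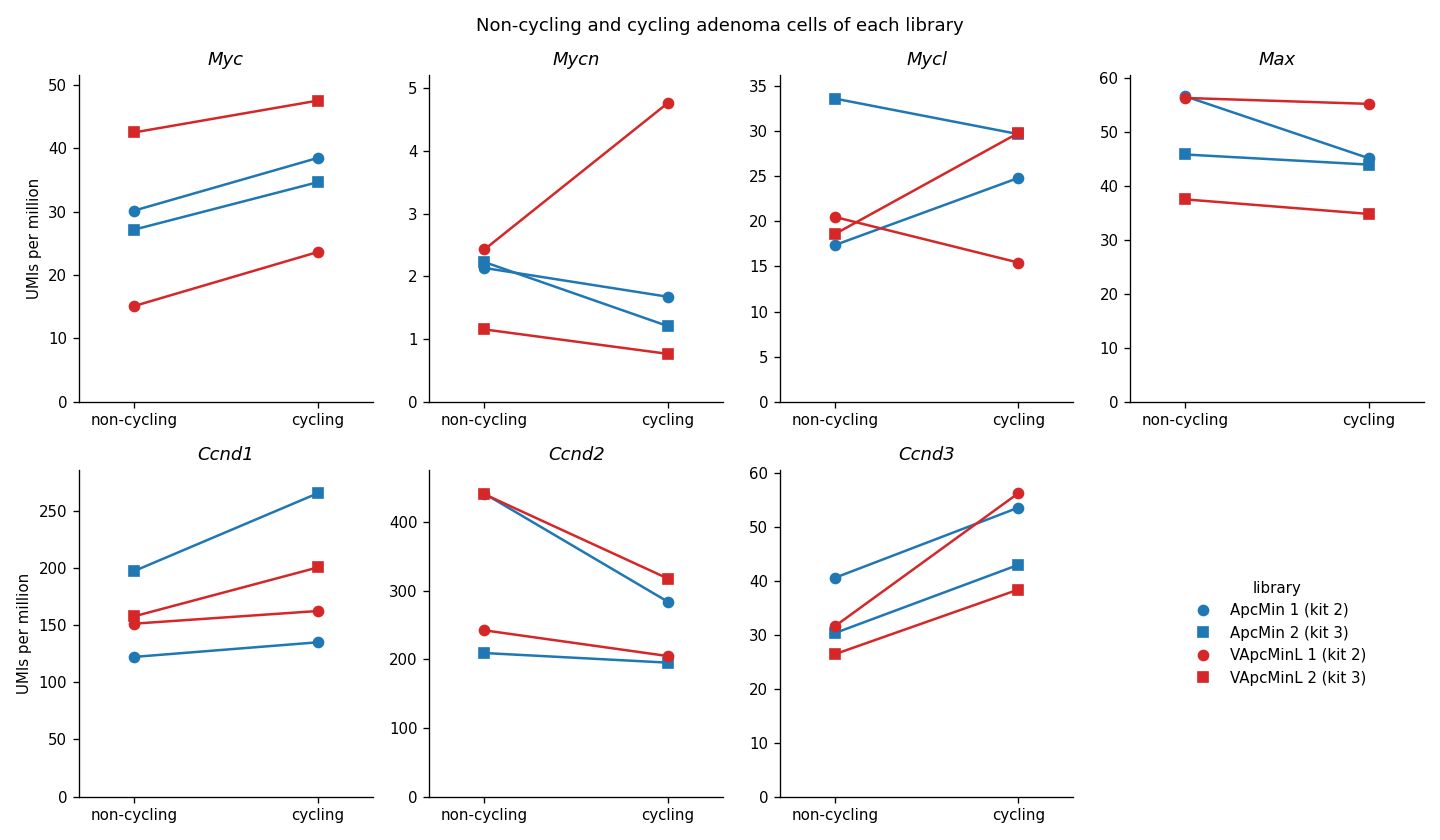
Levels of the members in non-cycling and cycling adenoma cells, in CPM, with a line joining the classes of each library. The lines of Ccnd3, Ccnd1 and Myc go up in all 4 libraries and those of Ccnd2 go down in all 4.

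The genes around the members moved with the cycling state of adenoma cells. In a list of 24 MYC target genes of ribosome biogenesis and metabolism, all 24 were called higher, with a median log2 change of 0.87 against -0.05 over all genes tested, and 20 to 24 were called higher across 14 alternative analyses. The cells were chosen by S and G2/M genes, and whether these rises went with Myc itself was not tested. Cad, which begins pyrimidine synthesis, rose by 1.43 (SE 0.11, edgeR adjusted p = 1.1e-06). Ranbp1, a regulator of the Ran GTPase, rose from 276 ± 38.4 to 702 ± 123 CPM, with a log2 change of 1.38 (SE 0.06, edgeR adjusted p = 4.83e-09).

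Of 10 network partners of MYC and MAX, 2 were called higher and 5 lower (median -0.15). Mxd3, a MAX partner of dividing cells, rose from 9 UMIs in all non-cycling sums, 0.427 ± 0.356 CPM, to 16.2 ± 3.55 (edgeR adjusted p = 3.43e-08). Mxd4 fell from 63.3 ± 15.7 to 20.1 ± 3.91 (log2 change -1.62, SE 0.08, edgeR adjusted p = 2.12e-08), and Mxd1 fell by 1.21 on the log2 scale (SE 0.14, edgeR adjusted p = 2.93e-05). MXD1 and MXD4 occupy MAX in differentiating cells. Mlx, the partner shared with the glucose-sensing factors, changed by 0.17 (edgeR adjusted p = 0.127).

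In the list of 19 genes of the CDK and RB axis, 13 were called higher and 4 lower (median 0.57). Ccne1 and Ccne2, the E-type cyclins that act after the D-type cyclins, rose by 3.63 (SE 0.17, edgeR adjusted p = 1.07e-08) and 3.36 (SE 0.18, edgeR adjusted p = 4.82e-08). Cycling cells were gated by S and G2/M genes, so rises of other cell cycle genes, here and in crypt cells below, are not independent of the gate. Cdkn1c, which encodes the CDK inhibitor p57, fell from 212 ± 146 to 73.7 ± 35.6 CPM (log2 change -1.28, SE 0.20, edgeR adjusted p = 0.000272). Cdkn2a, which encodes p16 and p19ARF, changed by -0.08 (edgeR adjusted p = 0.858). With cells thinned to 2000 UMIs 9 of these genes could be tested, of which 4 were called higher and 2 lower.

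Cycling adenoma cells were further divided into those with a high S-phase score alone and those with a high G2/M score. The first held 46, 19, 43 and 182 cells. Ccnd1 was 198.8, 290.1, 247.5 and 310.9 CPM in the S-phase cells and 123.7, 261.3, 143.6 and 181.1 in the G2/M cells, against a mean of 157 ± 30.9 in non-cycling adenoma cells. Ccnd2 was 386.5, 204.1, 296.2 and 509.3 in S phase and 265.9, 193.8, 184.8 and 284.4 in G2/M. Both were thus higher in S phase in 4 of 4 libraries. The non-cycling level of Ccnd2 lay between those of the phases in VApcMinL 1 and 2 and above both in ApcMin 1 and 2. Mycl was higher in G2/M in 4 of 4 libraries (25.8 against 20.6). For these 3 genes the exact permutation test, two-sided over 4 libraries, gave p = 0.125, the smallest it can give.

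Crypt cells were compared in the same way, with far fewer cells. None of the 6 members tested was called between cycling and non-cycling crypt cells, where 6.19% of 8212 genes were called higher and 4.44% lower. Myc changed by -0.64 (SE 0.26, edgeR adjusted p = 0.142), Ccnd2 by -0.17 (edgeR adjusted p = 0.595) and Ccnd3 by 0.14 (edgeR adjusted p = 0.822). Mycn was below the count minimum. With cells gated by the second adenoma marker set, Ccnd2 was called lower (-0.64, edgeR adjusted p = 0.00135) and Ccnd3 higher (0.58, edgeR adjusted p = 0.0494). The difference between the cycling change in adenoma and in crypt cells was tested directly, and no gene was called. For Myc it was 0.76 (SE 0.43, edgeR adjusted p = 0.736) and for Ccnd1 0.30 (SE 0.18, edgeR adjusted p = 0.763), so the members are not shown to respond differently in adenoma cells.

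In crypt cells the same lists were counted on fewer cells. Of the 24 MYC target genes, 11 were called higher and 0 lower (median 0.64), Ranbp1 leading with 1.00 (SE 0.12, edgeR adjusted p = 2.72e-05), and 2 to 18 were called higher across the alternatives. Rrp9, a component of the nucleolar U3 particle, changed by 1.07 (edgeR adjusted p = 0.0821). Of 8 network partners tested, 0 were called higher and 2 lower, Mxd4 with -1.70 (edgeR adjusted p = 0.000639) and Mxd1 with -1.57 (edgeR adjusted p = 0.0388), and Mlxipl changed by 0.50 (edgeR adjusted p = 0.364). In the CDK and RB list 5 of 18 were called higher and 3 lower, with Ccne2 at 3.77 (edgeR adjusted p = 0.00963). Cdkn2d, which encodes the CDK inhibitor p19INK4D, changed by 2.03 (edgeR adjusted p = 0.0776).

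Adenoma and crypt cells at the same cycling state were then set against each other. These classes were separated by Wnt-feedback genes. Differences in other targets of that pathway, such as Ccnd1 and Myc, need not be independent of the gate. Between cycling cells, Mycl, Ccnd3 and Ccnd1 were higher and Ccnd2 was lower in adenoma, each in 4 of 4 libraries. Mycl rose from 6.6, 7.9, 11.5 and 12.3 CPM in crypt cells to the adenoma levels above, with no overlap between the classes (log2 change 1.30, SE 0.22, edgeR adjusted p = 0.00127). Ccnd2 was 357.6, 342.5, 276.0 and 496.5 in crypt cells and 284.0, 195.3, 204.8 and 317.8 in adenoma cells (-0.67, SE 0.09, edgeR adjusted p = 0.000321). The ranges overlapped between libraries, but within each library the crypt cells held more.

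Ccnd3 was 31.3, 27.6, 35.0 and 27.1 in cycling crypt cells and 53.5, 42.9, 56.2 and 38.4 in cycling adenoma cells, with no overlap (0.54, SE 0.09, edgeR adjusted p = 0.00155), and these levels too lay below those of the low-UMI barcodes. Ccnd1 was 114.2, 195.3, 108.2 and 173.2 in cycling crypt cells, and its rise was the smallest of the called members (0.26, SE 0.08, edgeR adjusted p = 0.0285). Myc did not pass the test (0.12, SE 0.17, edgeR adjusted p = 0.622; higher in 3 of 4 libraries). Max changed by 0.14 (edgeR adjusted p = 0.266) and Mycn by -0.90 (SE 0.41, edgeR adjusted p = 0.107). So 3 of 7 members were called higher and 1 lower, beside 22.7% of 10658 genes called higher and 20.2% called lower. The share of called genes that were higher was 52.9%, and 65.4% when libraries were scaled to total UMIs.

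The call for Ccnd1 was lost in 7 of 14 alternatives, among them leaving out ApcMin 1, ApcMin 2 or VApcMinL 1 (edgeR adjusted p = 0.0569, 0.0769 and 0.128) and DESeq2 (adjusted p = 0.0542). That for Ccnd3 was lost with the second adenoma marker set (0.22, edgeR adjusted p = 0.177) and with thinned cells (edgeR adjusted p = 0.109). Markers of other lineages differed between the classes compared. The summed Paneth markers were 438 to 574 CPM in cycling adenoma cells and 65.6 to 316 in cycling crypt cells, the tuft markers 89 to 140 against 10.2 to 28.9, and the enterocyte markers 499 to 1259 against 1217 to 2255. Their part in these results was not tested.

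**Figure D3:**
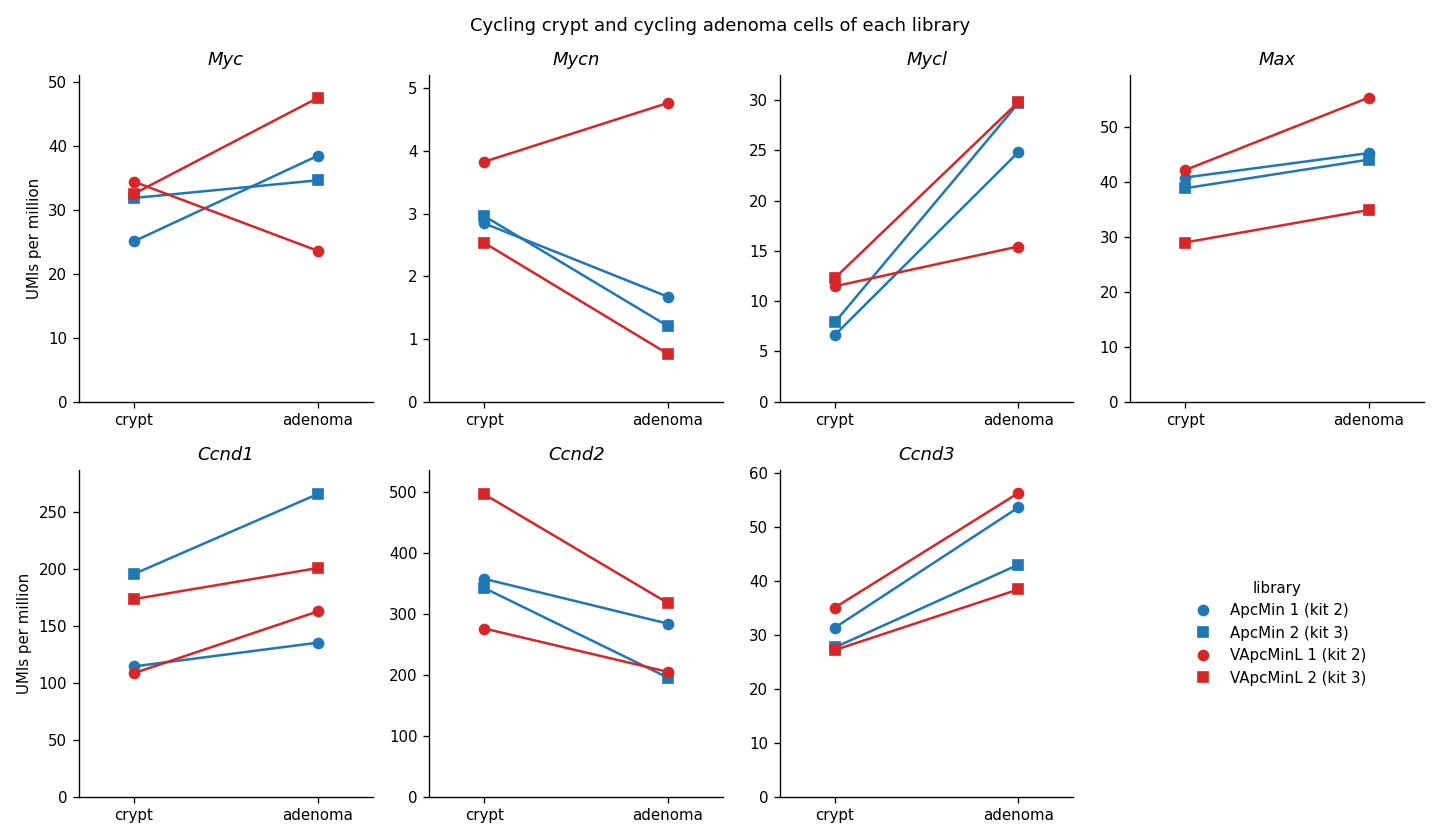
Levels of the members in cycling crypt and cycling adenoma cells, in CPM, with a line joining the classes of each library. Mycl and Ccnd3 are higher in adenoma cells in every library without overlap, and Ccnd2 is lower in every library.

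The MYC target genes were called in both directions here. Between cycling adenoma and cycling crypt cells 4 of 24 were called higher and 3 lower, with a median of -0.02 against 0.02 over all genes. Srm, the spermidine synthase, rose by 0.49 (SE 0.08, edgeR adjusted p = 0.000966), while Tfrc, the transferrin receptor, fell by 0.72 on the log2 scale (SE 0.16, edgeR adjusted p = 0.00552). Bop1 changed by -0.22 (edgeR adjusted p = 0.222). Among network partners 4 of 10 were called higher and 3 lower. The 3 lower ones were Mlxipl, Mlxip and Mlx, which form the glucose-sensing branch of the network. Mlxipl was 8.14 ± 1.31 in cycling adenoma and 37.0 ± 7.60 in cycling crypt cells (-2.27, SE 0.13, edgeR adjusted p = 3.08e-06). Mxd1 was higher (0.98, SE 0.16, edgeR adjusted p = 0.000893), and Mnt changed by 0.35 (edgeR adjusted p = 0.157).

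Of the CDK and RB genes 8 of 19 were called higher and 4 lower. Cdkn2a had 169 UMIs in the cycling adenoma sums and 0 in the cycling crypt sums of all 4 libraries. Its pooled adenoma level of 3.03 CPM was 9.85 times the 0.308 CPM that a count of 0 allows in the pooled crypt sums. The libraries weigh differently in these pools. VApcMinL 2 held 36710592 of 55768475 UMIs in the adenoma sums and 2765165 of 9747779 in the crypt sums. Cdkn1c was 73.7 ± 35.6 against 5.43 ± 4.75 (3.61, SE 0.35, edgeR adjusted p = 5.42e-05) and Cdkn1a, which encodes p21, 111 ± 30.8 against 41.2 ± 18.3 (1.37, SE 0.13, edgeR adjusted p = 4.04e-05). Cdk6, a kinase partner of the D-type cyclins, was lower, 30.9 ± 4.70 against 50.5 ± 8.27 (-0.85, SE 0.14, edgeR adjusted p = 0.00112). Rbl2, which encodes the RB relative p130, changed by -0.51 (edgeR adjusted p = 0.0598).

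Between non-cycling adenoma and non-cycling crypt cells none of the 6 members tested was called, beside 5.88% of 9559 genes called higher and 6.71% lower. The crypt sums rested on 5 to 37 cells. Mycl had the largest change, 1.21 (SE 0.42, edgeR adjusted p = 0.0764), higher in 4 of 4 libraries, and passed the threshold with scaling to total UMIs (1.32, edgeR adjusted p = 0.0480), which moved the share of called genes that were higher from 46.7% to 60.3%. It also passed without a count filter (edgeR adjusted p = 0.0367) and with the second adenoma marker set (edgeR adjusted p = 0.0493). Myc was at -0.78 (SE 0.38, edgeR adjusted p = 0.221), and at -1.36 (edgeR adjusted p = 0.0215) without VApcMinL 2. Ccnd2 was at -0.38 (edgeR adjusted p = 0.166) and, with the second adenoma marker set, at -0.74 (edgeR adjusted p = 0.00893). Of the 24 MYC target genes 0 were called higher and 2 lower, Hspd1 (-0.91, edgeR adjusted p = 0.00492) and Tfrc, and Fbl changed by -0.62 (edgeR adjusted p = 0.0535). Of 9 network partners 0 were higher and 2 lower, Mlxipl with -2.86 (edgeR adjusted p = 0.000233) and Mlx, and Mlxip changed by -0.79 (edgeR adjusted p = 0.190). Of 13 CDK and RB genes 2 were higher and 1 lower, Cdkn1c again with the largest rise (2.43, edgeR adjusted p = 0.00591), and Cdkn2b changed by -1.12 (edgeR adjusted p = 0.0636).

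The make-up of the D-type cyclins was also given as the share of each among the UMIs of all 3. On average over the libraries Ccnd2 was the largest share in adenoma, crypt and T cells, and Ccnd1 in endothelial cells (72.3% ± 11.8, SD, n = 4). In cycling crypt cells Ccnd1 made 27.0% ± 5.21, Ccnd2 67.2% ± 5.07 and Ccnd3 5.83% ± 1.93. In cycling adenoma cells the shares were 38.9% ± 10.1, 51.1% ± 9.60 and 10.0% ± 2.85. The Ccnd1 share in cycling adenoma cells ran from 28.6% to 52.7%, and in ApcMin 2 it exceeded that of Ccnd2. Ccnd1 also exceeded Ccnd2 in the low-UMI barcodes of the kit 3 libraries, with 308 against 210 CPM in ApcMin 2 and 310 against 232 in VApcMinL 2. Free RNA was not subtracted from the shares, and its part in them was not tested. Within libraries the Ccnd1 share was 11.9 ± 5.05 percentage points higher in cycling adenoma than in cycling crypt cells, that of Ccnd3 was 4.17 ± 1.02 points higher, and that of Ccnd2 was lower by 16.1 ± 4.63 points. Cycling and non-cycling adenoma cells differed in the same directions, by 7.36 ± 3.36, 3.69 ± 1.91 and 11.0 ± 2.52 points. All of these differences had 1 sign in 4 of 4 libraries, where the exact permutation test, two-sided, gives p = 0.125, the smallest possible.

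**Figure D4:**
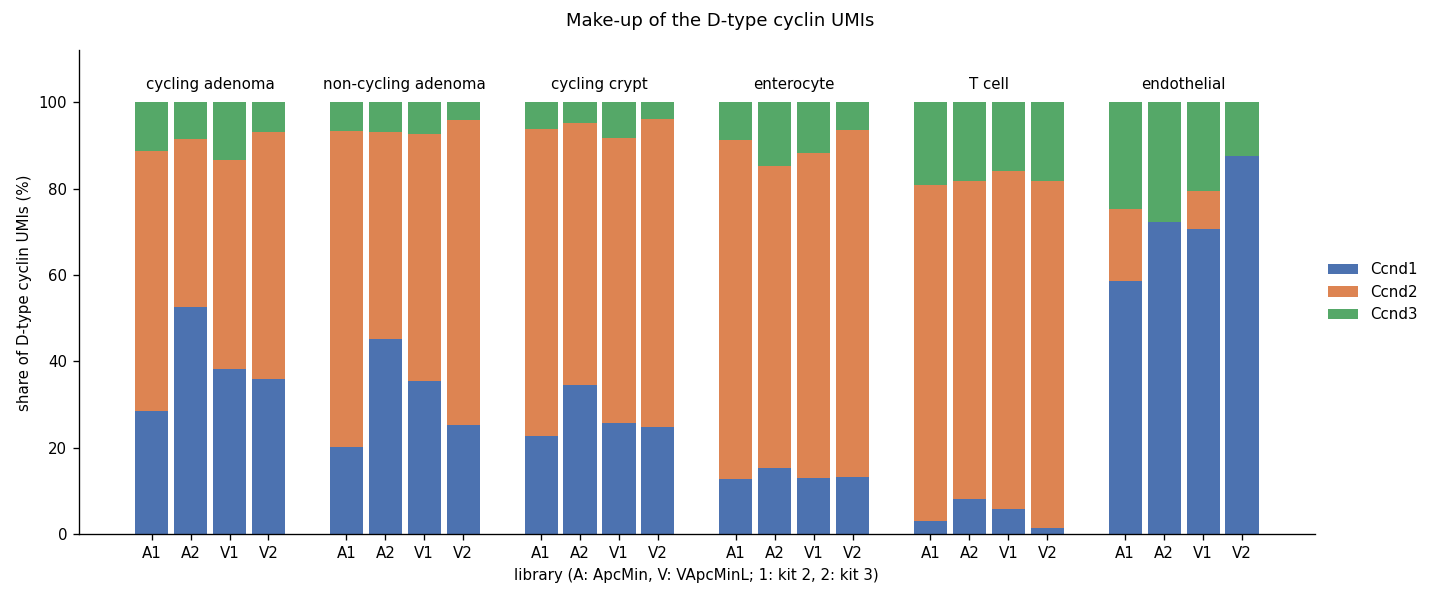
Share of Ccnd1, Ccnd2 and Ccnd3 among all D-type cyclin UMIs in each cell class, in percent, with 1 stacked bar per library for 6 cell classes. Ccnd1 makes a mean of 27.0% in cycling crypt, 38.9% in cycling adenoma and 72.3% in endothelial cells. Free RNA was not subtracted.

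Detection of Ccnd2 was set against that of Ccnd1 in single adenoma cells. With every cell thinned to 2000 UMIs, Ccnd2 was detected in 52.7%, 28.6%, 32.5% and 48.0% of the adenoma cells with a Ccnd1 UMI and in 41.4%, 30.3%, 31.4% and 43.9% of those without. The share was higher beside a Ccnd1 UMI in 3 of 4 libraries and lower in ApcMin 2. No test was made of these differences, and the part of free RNA in them was not estimated, so joint expression is not read from them. At the same depth 1.6% to 3.4% of enterocytes had a Ccnd1 UMI.

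Against enterocytes, non-cycling adenoma cells had higher Myc, Mycl, Ccnd1, Ccnd2 and Ccnd3 and lower Max, with 5 of 7 members called higher and 1 lower beside 36.3% of 11506 genes called higher and 34.7% lower. Myc rose by 2.78 (SE 0.25, edgeR adjusted p = 4.42e-05), Mycl by 2.52 (SE 0.36, edgeR adjusted p = 0.000426) and Ccnd1 by 2.51 (SE 0.23, edgeR adjusted p = 4.46e-05). Max was 56.7, 45.9, 56.4 and 37.5 CPM in non-cycling adenoma cells and 66.8, 86.2, 104.5 and 75.8 in enterocytes, with no overlap (-1.39, SE 0.19, edgeR adjusted p = 0.000325). Ccnd2 had a smaller rise (1.06, SE 0.14, edgeR adjusted p = 0.000248), which was lost when the mitochondrial limit was 10% (0.27, edgeR adjusted p = 0.109). Mycn changed by -0.68 (edgeR adjusted p = 0.146) and was called lower at that limit (-1.14, edgeR adjusted p = 0.0178). Scaling to total UMIs moved the median of all genes from 0.05 to 0.67 and the share of called genes that were higher from 51.1% to 73.2%, and Max remained lower (-0.77).

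Of the 24 MYC target genes 19 were higher than in enterocytes and 3 lower. Nop56, a nucleolar protein of ribosome assembly, rose by 2.30 (SE 0.20, edgeR adjusted p = 3.44e-05), Tfrc fell by 1.70 on the log2 scale (edgeR adjusted p = 0.000326), and Eif4e changed by 0.27 (edgeR adjusted p = 0.0847). Of 9 network partners 2 were higher and 5 lower, led by Mlxipl (-3.97, SE 0.16, edgeR adjusted p = 1.46e-06) and Mxd1 (-3.00, SE 0.36, edgeR adjusted p = 0.000165), while Mnt changed by 0.10 (edgeR adjusted p = 0.555). Of 18 CDK and RB genes 4 were higher and 6 lower, and Cdkn1c had the largest rise (3.68, SE 0.30, edgeR adjusted p = 2.61e-05). Ccne2 changed by -0.82 (edgeR adjusted p = 0.130). Cdk4, the other kinase partner of the D-type cyclins, was 258 ± 42.5 against 35.8 ± 12.9 CPM (2.30, SE 0.19, edgeR adjusted p = 2.52e-05), and Cdkn2b, which encodes the CDK4 and CDK6 inhibitor p15, was lower (-3.28, SE 0.18, edgeR adjusted p = 4.46e-06).

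Against immune cells, Ccnd1 (1.38, SE 0.17, edgeR adjusted p = 8.27e-05) and Mycl (1.10, SE 0.23, edgeR adjusted p = 0.00274) were higher and Ccnd3 (-1.37, SE 0.18, edgeR adjusted p = 0.000131) and Max (-0.75, SE 0.18, edgeR adjusted p = 0.00529) lower in non-cycling adenoma cells. These are 2 of 6 members tested in each direction, beside 28.1% of 10864 genes higher and 27.7% lower. Myc (0.06, edgeR adjusted p = 0.790) and Ccnd2 (-0.26, edgeR adjusted p = 0.353) did not pass the test. Mycn had 0 UMIs in the immune cells, and its level in non-cycling adenoma cells lay below that of the low-UMI barcodes in every library, so that no difference is read from it. The immune sums mixed T, plasma, myeloid, mast and unassigned immune cells in proportions that varied among libraries, and scaling to total UMIs moved the share of called genes that were higher from 50.4% to 63.7%. Of 24 MYC target genes 9 were higher and 2 lower. Odc1, ornithine decarboxylase, had the largest change (-1.42, SE 0.19, edgeR adjusted p = 0.000172), and Srm changed by -0.49 (edgeR adjusted p = 0.0602). Of 8 network partners 0 were higher and 4 lower, Mxd4 the most (-1.02, SE 0.18, edgeR adjusted p = 0.000935), and Mga changed by 0.47 (edgeR adjusted p = 0.0641). Of 18 CDK and RB genes 4 were higher and 7 lower, with Cdkn1c at 5.51 (SE 0.41, edgeR adjusted p = 3.17e-06) and Cdkn2c, an inhibitor of CDK4 and CDK6, at -4.01 (SE 0.31, edgeR adjusted p = 4.69e-06), and Cdkn2a changed by -1.04 (edgeR adjusted p = 0.108).

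The study was made to compare the genotypes, and no member was called between the libraries labelled VApcMinL and ApcMin. Called higher or lower were 0% of 11209 genes in non-cycling and 0% of 11706 in cycling adenoma cells. The test had few residual degrees of freedom and did not call Xist either, although its levels given above were far apart between the labels. The lack of calls is therefore not read as likeness of the genotypes. At an unadjusted p under 0.05 there were 23 and 27 genes in edgeR, and DESeq2 called 3 in cycling cells. In non-cycling adenoma cells the log2 change was -0.17 for Myc (SE 0.54), -0.03 for Ccnd1 (SE 0.27), 0.08 for Ccnd2 (SE 0.63) and -0.30 for Ccnd3 (SE 0.24). In cycling adenoma cells it was -0.12 for Myc (SE 0.37), -0.08 for Ccnd1 (SE 0.20), 0.11 for Ccnd2 (SE 0.37) and -0.06 for Ccnd3 (SE 0.16). The errors leave room for sizeable changes of Myc and Ccnd2 in either direction. The study reports Myc as higher after Lef1 deletion, as RNA and by immunostaining in adenoma cells of its Lgr5-driven model. In VApcMinL tumors it reports the increase by immunostaining, which measures protein. With these errors and labels, the RNA levels here cannot decide on that report. The adenoma gate used Notum, Nkd1, Wif1, Prox1, Axin2, Dkk2 and Dkk3. The study reports these genes as lower after Lef1 deletion in adenoma cells of its Lgr5-driven model. Adenoma cells low in these markers could be gated as crypt cells or left unassigned, so the genotype comparison covers only cells that kept them. How many were missed was not tested.

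Several members differed between the labels in opposite ways in the kits. In non-cycling adenoma cells the level in the library labelled VApcMinL was 0.55 times that in ApcMin for Ccnd2 with kit 2 and 2.11 times with kit 3. For Myc these ratios were 0.50 and 1.56, and for Ccnd1 1.24 and 0.80. The ratios lay on opposite sides of 1 for 5 of 7 members in non-cycling and for 7 of 7 in cycling adenoma cells. Some were close to 1, as those of Mycl (1.00) and Ccnd3 (0.89) with kit 3 in cycling cells. The share of all genes with opposite ratios was not determined, so these counts are not read as a trait of the members. Lef1 itself was opposite between kits. Across the 4 libraries Ccnd2 in non-cycling adenoma cells was highest in ApcMin 1 and VApcMinL 2, where Lef1 was lowest, and the summed adenoma markers were lower in those libraries too. In cycling adenoma cells Lef1 was nearly the same in VApcMinL 2 (21.7 CPM) and VApcMinL 1 (22.9). A link between these levels was not tested. Because the labels do not match Lef1 in kit 2, no direction of a genotype effect is drawn. The list genes had 0 calls in either class, and the difference in the cycling change between genotypes had no called gene, with edgeR adjusted p = 1.00 for each member.

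**Figure D5:**
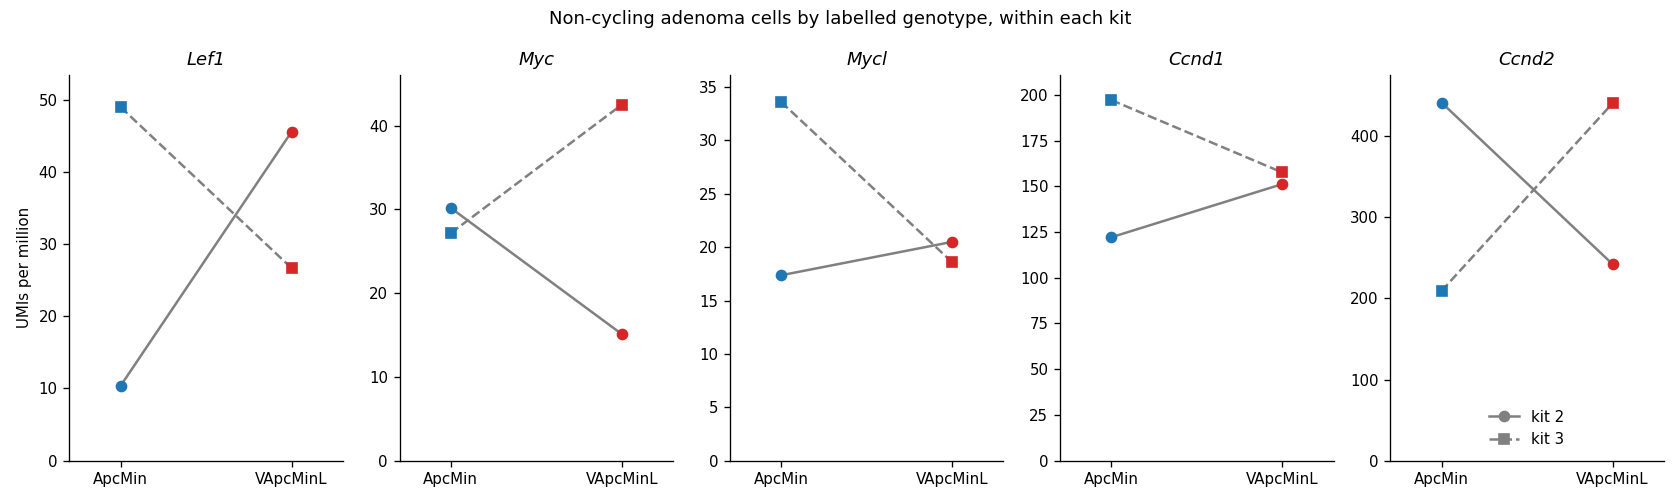
Levels of Lef1, Myc, Mycl, Ccnd1 and Ccnd2 in non-cycling adenoma cells by genotype label, in CPM, with a line joining the libraries of each kit. For Ccnd2 in non-cycling cells the kit 2 line falls to 0.55 times and the kit 3 line rises to 2.11 times the ApcMin level.

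Genes whose levels followed a member most closely were ranked by Pearson's r of log2 levels over 64 sums, 16 cell classes in 4 libraries, which share libraries and depth and are given as a description. For Myc they were Thumpd3 (0.673), Ftsj3 (0.655), C1qbp (0.653), Rrp1b (0.653) and Npm1 (0.646). For Mycl the first were Fam60a (0.676) and Bcl11a (0.665), and for Max Nadk (0.835) and Gpatch11 (0.750). Ccnd1 was followed by Avpi1 (0.742) and Pcbp1 (0.696), and Ccnd3 by Arhgef1 (0.819) and Ldlrad4 (0.769). The values for Ccnd2 were the lowest, with Bmyc (0.574) and Gpr108 (0.567) first. Mycn was too low to be ranked.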

How the data were processed

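Single-cell RNA-seq was analysed from 4 libraries. The authors aligned reads to mm10 and counted UMIs with Cell Ranger 2.1.1 per the labels, and a kit 3 file header names another release. The deposited values are raw UMI counts per gene and barcode, not normalized. Total UMIs were 44660305 (ApcMin 1), 98714025 (ApcMin 2), 49009488 (VApcMinL 1) and 128247396 (VApcMinL 2), and median UMIs of kept cells 10879.5 to 26205. No more than 11 barcodes were shared by any pair of libraries. Intervals and limits cover counting error only.

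Cells were gated on marker UMIs per 10000, with limits set after the marker distributions had been seen. No doublets were removed in the main analysis. The alternative that removed doublets used Scrublet (scanpy 1.11.5). Counts were summed per library and class and tested with edgeR 4.0.16 (quasi-likelihood, TMM, filterByExpr, Benjamini-Hochberg over all genes tested, called at 0.05), with library as block between classes and kit as block between genotypes. Marker genes were left out of counts of calls. Scripts were tested on simulated data. Nothing states whether libraries with the same genotype label share animals, so p-values measure only the spread between these libraries.

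Replicate numbers pair the libraries because the labels give kit 2 to replicate 1 and kit 3 to replicate 2. Deviations of same-kit libraries correlated with r = -0.023 over 11303 genes in non-cycling and 0.266 over 11815 genes in cycling adenoma cells. The members and lists were chosen with earlier results of these data known. The text names the members and, for each list with calls in a comparison, 2 to 4 genes from those with the largest changes among the called and, where there is one, the gene with the largest change among those not called. The comparison of cycling adenoma with cycling crypt cells, the tests of differences between changes, and scaling to total UMIs were added after the data had been seen.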

Additional observations from a re-analysis of the deposited data

How the results depend on the processing

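Thinning cells to 2000 UMIs gave fewer calls and also left fewer genes to test. It gave 751 calls of 3330 tested between cycling adenoma and cycling crypt cells (4574 of 10658 in the main analysis), 1623 of 5303 between cycling and non-cycling adenoma cells (5822 of 11525), 106 of 1530 between cycling and non-cycling crypt cells (873 of 8212), 199 of 2512 between non-cycling adenoma and crypt cells (1203 of 9559), 4889 of 7745 against enterocytes (8160 of 11506) and 2720 of 5590 against immune cells (6072 of 10864). The second adenoma marker set gave 2652, 1871 and 651 between cycling adenoma and crypt, cycling and non-cycling crypt, and non-cycling adenoma and crypt cells, and DESeq2 gave 472 between cycling and non-cycling crypt cells. Leaving out 1 library gave 383 (without VApcMinL 2) to 817 between cycling and non-cycling crypt cells, with 523 without ApcMin 1, and 808 to 1103 between non-cycling adenoma and crypt cells.

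Between genotypes in cycling adenoma cells, edgeR called 0 genes, DESeq2 3 (Xist, Tsix and Fabp6), and thinning, no count filter and the second marker set 1 each (Xist). These genes were named after their values were seen. Without the kit as replicate block 0 genes were called in either class, so the pairing changed no call, and leaving out a library left no residual degrees of freedom, so no test was made.

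Of the members' changes that were called in the main analysis or in the alternative, 1 reversed. Myc between cycling and non-cycling adenoma cells was -0.14 (edgeR adjusted p = 0.685) with thinned cells, which left 5 to 89 Myc UMIs per sum. Across members and alternatives 12 calls were lost, this one included, and 10 gained, and the cause was not tested. Ccnd2 and Mycl between cycling adenoma and crypt cells, and Ccnd2 and Ccnd3 between cycling and non-cycling adenoma cells, were called under every alternative that tested them. Changes that were not called turned direction in further cases. Between genotypes in non-cycling adenoma cells Ccnd2 ran from -0.97 to 1.15 and Myc from -1.10 to 0.72. Ccnd1 between cycling and non-cycling crypt cells ran from -0.18 to 0.45.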
